A study of Mus musculus with 8 samples.

Results

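The 10 genes described here encode the signalling core of a CD8 T cell: the CD3 chains Cd3e, Cd3d and Cd3g, the zeta chain Cd247, the co-receptor chains Cd8a and Cd8b1, the kinases Lck and Zap70, the adaptor Lat, and the surface protein Thy1. They were taken by symbol from a deposited table of read counts for 24976 genes, and all 10 were in it and passed the low-count filter. The table comes from bulk RNA sequencing of CD8 T cells recovered from tumours of B16-OVA, mouse melanoma cells that carry the model antigen ovalbumin. The tumours grew under the skin of Rag2-/- mice, hosts without lymphocytes of the T and B lineages but with NK and myeloid cells, and these hosts were given CD8 T cells by transfer 10 days after the tumour cells. Tumour-infiltrating CD3e+CD8+ cells were sorted 10 days later into PD1+Tim3+ and PD1+Tim3- fractions, both of them positive for the inhibitory receptor PD1. Per the labels, donors of the group called dKO here carried Cd8Cre, floxed alleles of Nr4a1 and Nr4a2 on both chromosomes and the OT-I transgene, which encodes an ovalbumin-specific receptor, while the other donors are labelled WT. Whether WT donors carried OT-I is not stated, so receptor specificity and the genotype label cannot be told apart. Each of the 4 groups, dKO PD1+Tim3+, WT PD1+Tim3+, dKO PD1+Tim3- and WT PD1+Tim3-, had 2 libraries, each from the cells of an implanted mouse per the labels' protocols.

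The T cell receptor has no signalling domain of its own. It sits in the membrane with CD3 epsilon, delta, gamma and zeta, whose tails are phosphorylated by LCK, a kinase that the CD8 co-receptor brings to the complex when CD8 binds MHC class I. ZAP70 then docks on the phosphorylated tails and phosphorylates LAT, the membrane scaffold from which calcium, RAS and NF-kappaB signals branch. THY1 is a GPI-anchored protein found on mouse T cells that can itself modulate receptor signals. NR4A factors are transcription factors that receptor signals induce.

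Total counts ran from 1944999 to 13418762 per library, and the 10 genes together took 0.471% to 0.739% of them. Between 302 counts (Cd247) and 26058 counts (Thy1) stood behind each gene in each library. No pair of replicates looked like the same library, since chi-square values per gene were 3.10 to 16.1. The sort itself selected for CD3e and CD8 protein, so detection of their messages is not a finding. Defining CD8 T cell markers summed to 2945 to 3875 CPM (read counts normalised to library size with TMM factors) over 5 genes. These were the members Cd3e, Cd3d, Cd3g, Cd8a and Cd8b1, so the sum is not a separate check. Counts of the targeted gene Nr4a1 were not lower but higher in the libraries labelled dKO. Nr4a1 stood at 1194 and 1175 CPM in PD1+Tim3+ libraries labelled dKO against 803 and 789 CPM in WT, and at 1331 and 1488.5 CPM against 979 and 824 CPM in PD1+Tim3- cells. Nr4a2 stayed between 929 and 1034 CPM in all 8 libraries. The floxed exons are not named in the labels, so these whole-gene counts cannot show whether the alleles were deleted. The genotype groups are called by their labels throughout. Ribosomal RNA took 7.88% and 8.36% of counts in PD1+Tim3+ libraries labelled dKO and 6.52% and 7.46% in WT, against 1.60% to 2.37% in the 4 PD1+Tim3- libraries. Its part in the population results was not tested.

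All 10 genes were well expressed in every library, and they differed modestly between groups. Set against transcript length, with the longest GENCODE transcript as the length and reads assumed to fall along all of it, Thy1 had the highest level at 997 CPM per kilobase over the 8 libraries. Cd3g followed at 589.6 CPM per kilobase, then Cd8b1 at 452 and Cd3d at 441. Lat at 339 and Cd8a at 335 CPM per kilobase were next to each other, and Cd8a passed Lat, 353 against 344, when the shortest transcript was used. Below them came Cd3e at 214, Lck at 179, Zap70 at 76.2 and Cd247 at 55.7 CPM per kilobase, the last of which has several transcripts and would stand at 125 with its shortest. The message of the zeta chain and that of ZAP70 were thus the least abundant of the core by this measure. The remaining values are CPM, which compare libraries and not genes.

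Of the 10 genes 2 rose in WT PD1+Tim3+ cells against WT PD1+Tim3- cells, Cd8a and Thy1, and 0 fell, where 17.0% of all 13073 genes tested were called in either direction, 8.25% higher and 8.76% lower. The members' share is thus near that of all genes. Calls are at an adjusted p under 0.05, from edgeR's quasi-likelihood test with Benjamini-Hochberg adjustment over all genes. Expressed as groups that do not overlap, 8 members were higher, against 32.7% of all genes, and 1 was lower, Cd3d, against 30.3%. Their median log2 fold change was 0.31, against 0.01 over all genes. Values differed with transcript length in this contrast: the median was 0.15 over genes with transcripts of 1000 to 1500 bases and 0.14 where transcripts had 1500 to 2500 bases. When length offsets were used the members' median was 0.20, and the values of Cd8b1 and Lck were 0.16 and 0.14 in place of 0.29 and 0.25. At an unadjusted p under 0.05 there were 6 members, where 31.6% of all genes passed. DESeq2 called 0 members. In bulk libraries fewer cells of a type and less RNA per cell cannot be told apart. Markers of CD4 and regulatory T cells moved with the population. Over the list's 3 genes, of which 2 passed the low-count filter, they summed to 19.4 to 26.6 CPM in PD1+Tim3+ libraries labelled dKO and 21.5 to 24.3 CPM in WT PD1+Tim3+ libraries, against 9.77 to 12.6 CPM in PD1+Tim3- libraries labelled dKO and 10.1 to 10.8 CPM in WT. Zbtb7b made up most of this sum, at 9.05 to 24.9 CPM over the 8 libraries, while Cd4 was at 0 in 6 of 8. Bulk counts cannot tell which cells these reads came from, and the part of these genes in the results was not tested.

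Among the cells labelled dKO the same comparison gave 0 calls by edgeR and 0 by DESeq2, where edgeR called 9.93% of all genes, and 1 member, Thy1, had an unadjusted p under 0.05 (23.7% of all genes). Here 3 members were higher without overlap, Thy1, Cd247 and Cd8a (26.2% of all genes), and 1 was lower, Lck (24.7%). The median was 0.06, against 0.01 over all genes. The fewer calls do not show a difference between genotypes, which the interaction below tests directly.

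**Figure D1:**
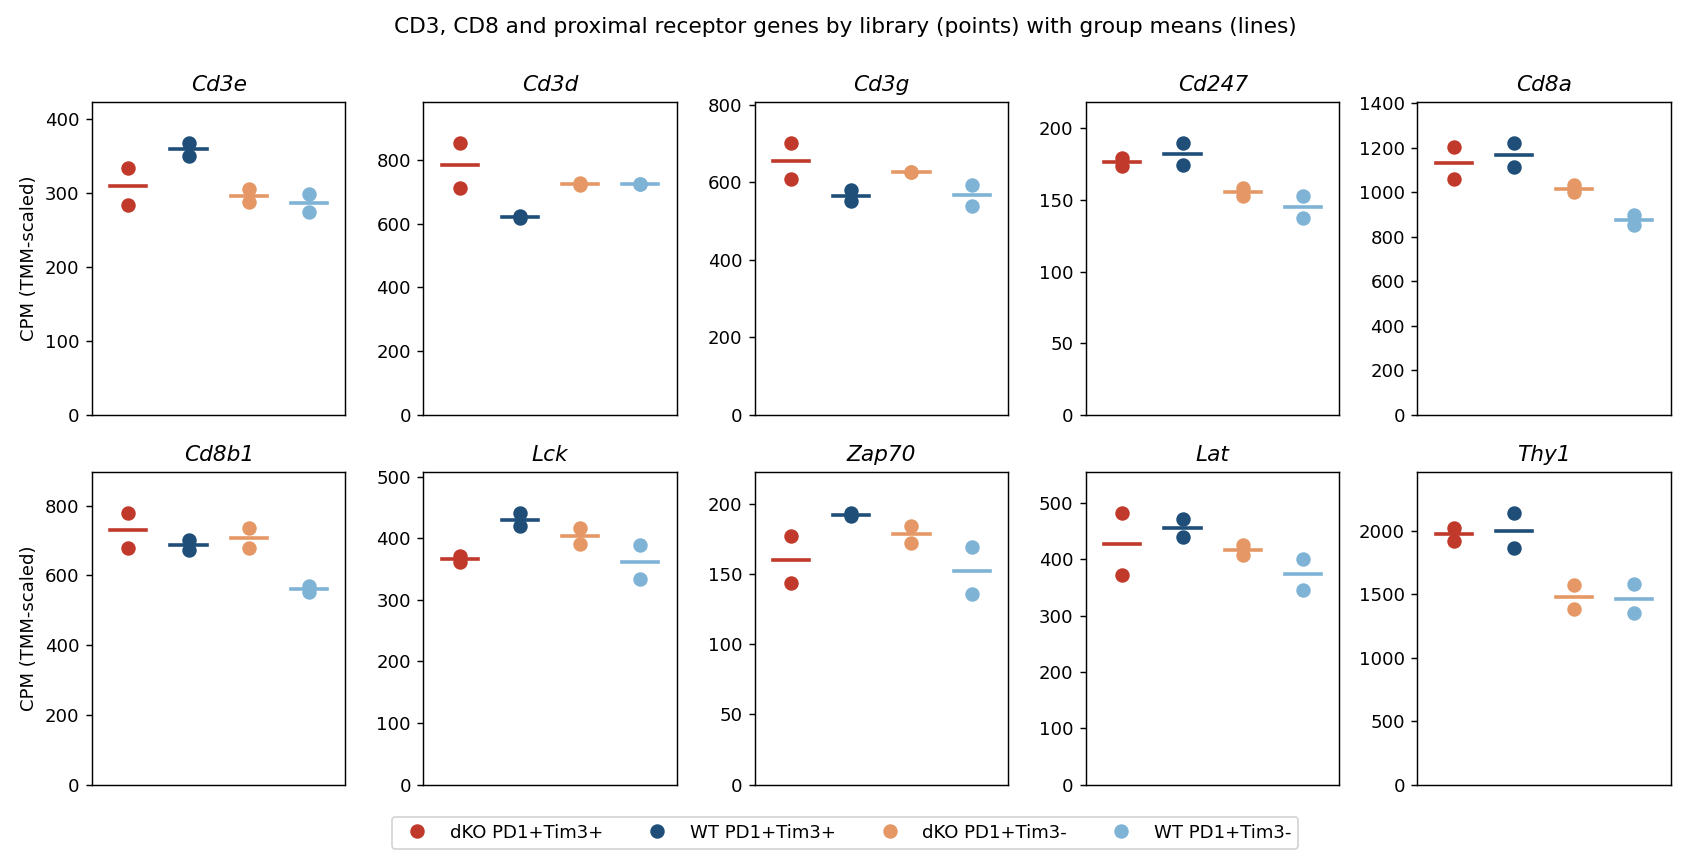
Level of each of the 10 genes in CPM (linear axis from 0) in every library, by group; points are single libraries and short lines are the mean of 2. Cd8a and Thy1 sit higher in the PD1+Tim3+ groups, and Cd3d is lowest in WT PD1+Tim3+ cells.

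Of the co-receptor chains, Cd8a passed in WT cells and Cd8b1 did not. Cd8a, the alpha chain that carries the LCK docking motif, stood at 1206 and 1062 CPM in PD1+Tim3+ libraries labelled dKO and at 1223 and 1114 CPM in WT PD1+Tim3+ libraries. In the PD1+Tim3- libraries it stood at 1001 and 1033 CPM in those labelled dKO and at 854 and 899.7 CPM in WT. The 4 PD1+Tim3+ values therefore lay above the 4 PD1+Tim3- values, and WT PD1+Tim3- cells were lowest. In WT cells Cd8a rose by a log2 fold change of 0.41 ± 0.12 (SE, 95% interval 0.15 to 0.68, adjusted p 0.0389, n = 2 against 2, edgeR), and was higher in 2 of 2 libraries. In the libraries labelled dKO it differed by 0.16 with an interval that included 0. DESeq2 gave the WT difference an adjusted p of 0.0806, and over all alternatives the adjusted p ran from 0.0111 to 0.257. It did not pass without replicate 1 or 2 of WT PD1+Tim3+, of dKO PD1+Tim3- or of WT PD1+Tim3-.

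Cd8b1 encodes the beta chain that pairs with alpha to make the efficient co-receptor of conventional CD8 T cells. It stood at 779.8 and 679 CPM in PD1+Tim3+ libraries labelled dKO and at 700.1 and 674 CPM in WT PD1+Tim3+ libraries, and at 677 and 736 CPM in PD1+Tim3- libraries labelled dKO and 552 and 569.7 CPM in WT. WT PD1+Tim3- cells stood apart below the other 6 libraries, which overlapped each other. The gap between the libraries labelled dKO and WT in PD1+Tim3- cells, 0.33 ± 0.12 (95% interval 0.07 to 0.60), was the largest of the 10 in that contrast and did not pass (edgeR, p 0.0190, adjusted p 0.542). The WT population difference was 0.29, adjusted p 0.123 by edgeR. The ratio of Cd8a to Cd8b1 counts stayed between 1.40 and 1.75 in all 8 libraries. It was 1.55 and 1.57 in PD1+Tim3+ libraries labelled dKO against 1.75 and 1.65 in WT, and 1.48 and 1.40 against 1.55 and 1.58 in PD1+Tim3- cells. Both WT PD1+Tim3+ libraries lay above the other 6.

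Thy1 was higher in PD1+Tim3+ cells by like amounts in both genotypes. It stood at 1922 and 2019 CPM in PD1+Tim3+ libraries labelled dKO and 2143 and 1861 CPM in WT PD1+Tim3+ libraries, against 1569.6 and 1387 CPM in PD1+Tim3- libraries labelled dKO and 1349.6 and 1580.5 CPM in WT. The lowest PD1+Tim3+ library lay above the highest PD1+Tim3- library in both genotypes, while the genotypes overlapped within each population. The log2 fold change was 0.41 ± 0.14 in cells labelled dKO (95% interval 0.12 to 0.71, edgeR adjusted p 0.0827) and 0.45 ± 0.14 in WT cells (0.15 to 0.75, adjusted p 0.0423). The difference between those contrasts was -0.04 with an interval from -0.46 to 0.38. DESeq2 gave the WT difference an adjusted p of 0.0680 and offsets for transcript length 0.119, in a range of 0.00273 to 0.295 over the alternatives, while without the low-count filter the difference in cells labelled dKO passed as well. The WT call did not hold without replicate 1 or 2 of WT PD1+Tim3+, replicate 1 or 2 of dKO PD1+Tim3-, or replicate 1 of WT PD1+Tim3-.

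The CD3 genes lie together on chromosome 9 of GRCm38, where the starts of Cd3g (44969572 to 44980431, reverse strand) and Cd3d (44981786 to 44987339, forward strand) are 1355 bases apart and point away from each other. Cd3e (44998740 to 45009627, reverse strand) lies beyond Cd3d, with 11401 bases between their ends. Cd8b1 (71322788 to 71337494) and Cd8a (71373427 to 71379173) are neighbours in the same orientation on chromosome 6, 35933 bases apart. The sequences below are the 200 bases from 250 to 51 bases before the annotated start of Cd8a, the co-receptor chain that rose in WT PD1+Tim3+ cells, and of the 3 clustered CD3 genes, whose ratios set WT PD1+Tim3+ libraries apart. They are from RefSeq on GRCm38.p6, written 5′ to 3′ on the gene's strand, and capitals mark matches to 2 of the motifs searched, the ETS core AGGAAG and the E-box CAGGTG, on either strand.
Cd8a (chr6:71373177-71373376, strand +): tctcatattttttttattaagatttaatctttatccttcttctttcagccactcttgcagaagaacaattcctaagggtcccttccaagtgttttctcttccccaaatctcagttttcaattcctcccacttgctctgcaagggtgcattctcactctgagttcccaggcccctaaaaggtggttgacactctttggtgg
Cd3g (chr9:44980482-44980681, strand -): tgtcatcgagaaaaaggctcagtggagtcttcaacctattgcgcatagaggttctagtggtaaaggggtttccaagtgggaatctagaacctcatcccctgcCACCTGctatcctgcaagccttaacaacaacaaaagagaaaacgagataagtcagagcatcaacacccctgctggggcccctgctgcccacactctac
Cd3d (chr9:44981536-44981735, strand +): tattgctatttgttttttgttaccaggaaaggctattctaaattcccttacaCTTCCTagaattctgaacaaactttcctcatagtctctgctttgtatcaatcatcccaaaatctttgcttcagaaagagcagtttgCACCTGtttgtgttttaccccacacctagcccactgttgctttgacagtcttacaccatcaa
Cd3e (chr9:45009662-45009861, strand -): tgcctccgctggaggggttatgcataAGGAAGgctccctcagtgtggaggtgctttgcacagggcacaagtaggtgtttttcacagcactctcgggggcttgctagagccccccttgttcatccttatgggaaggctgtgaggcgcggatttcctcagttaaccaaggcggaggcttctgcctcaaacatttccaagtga

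Windows of 300 bases, from 250 before to 50 after the start, were in hand for 8 of the 10 genes, and Cd8b1 and Thy1 had none. The nuclear receptor half-site AGGTCA, the kind of site that NR4A factors can bind as monomers with further flanking bases, was present in 1 of the 8, in 1 of the windows of Zap70, and in 16.3% of 32851 RefSeq windows. The ETS core was present in 6 of 8 (35.4% of all windows), the E-box in 6 of 8 (20.2%), the RUNX motif TGTGGT in 3 of 8 (16.8%) and the AP-1 motif TGANTCA in 0 of 8 (7.81%). Searches used both strands and the motifs do not overlap in the capitals shown. Genes with more than 1 annotated start, Lck and Zap70, had more than 1 window searched. A match in any of its windows counted for a gene, while the shares of all windows are per window, so the units differ. Cd8a held none of the 5 motifs in its window, Cd3g held the E-box without the ETS core, and Cd3d and Cd3e held both. A match of these letters is not a measured binding site.

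Cd3e and Cd3d, whose products pair in the receptor complex, ran in opposite directions in WT PD1+Tim3+ libraries. Cd3e stood at 334 and 284 CPM in PD1+Tim3+ libraries labelled dKO against 368 and 350.4 CPM in WT, and at 288 and 305 CPM against 274 and 298 CPM in PD1+Tim3- cells. WT PD1+Tim3+ cells had the highest level. Cd3d stood at 853 and 712 CPM in PD1+Tim3+ libraries labelled dKO against 619 and 622 CPM in WT, and at 728 and 721 CPM against 725 and 724 CPM in PD1+Tim3- cells. There the WT PD1+Tim3+ libraries were the lowest of the 8, and the PD1+Tim3- libraries of both genotypes were close to each other.

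In log2 terms Cd3e differed by -0.22 ± 0.12 between the PD1+Tim3+ libraries labelled dKO and WT (edgeR adjusted p 0.525) and Cd3d by 0.33 ± 0.12 (adjusted p 0.292). Between WT PD1+Tim3+ and PD1+Tim3- cells Cd3e differed by 0.33 ± 0.12 (adjusted p 0.0914) and Cd3d by -0.22 ± 0.12 (adjusted p 0.242). None of these passed, and both contrasts share the WT PD1+Tim3+ libraries. The genotype differences moved with single libraries: without replicate 1 of dKO PD1+Tim3+ they were -0.34 for Cd3e and 0.20 for Cd3d, and without replicate 2 -0.10 and 0.46. With offsets for transcript length the WT difference of Cd3d was -0.37 and passed at an adjusted p of 0.0399, in a range up to 0.511, and that of Cd3e was 0.19 and did not.

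The Cd3e to Cd3d count ratio puts this in a single number per library and needs no scaling between libraries. It was 0.391 and 0.3995 in PD1+Tim3+ libraries labelled dKO and 0.595 and 0.563 in WT PD1+Tim3+ libraries, and 0.395 and 0.424 in PD1+Tim3- libraries labelled dKO and 0.378 and 0.412 in WT. Both WT PD1+Tim3+ libraries lay above all 6 others, which spanned 0.378 to 0.424. A two-sided exact permutation test of 2 against 2 libraries cannot go below 0.333, which is the value it gave in PD1+Tim3+ cells between genotypes and in WT cells between populations. This ratio was picked out after the values had been seen. The Cd3e to Cd3g ratio had the same shape, 0.476 and 0.467 in PD1+Tim3+ libraries labelled dKO and 0.635 and 0.636 in WT, against 0.460 to 0.507 in the 4 PD1+Tim3- libraries. It shares Cd3e with the Cd3e to Cd3d ratio, so it is not a separate observation. How often ratios of other gene pairs set these libraries apart was not counted.

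**Figure D2:**
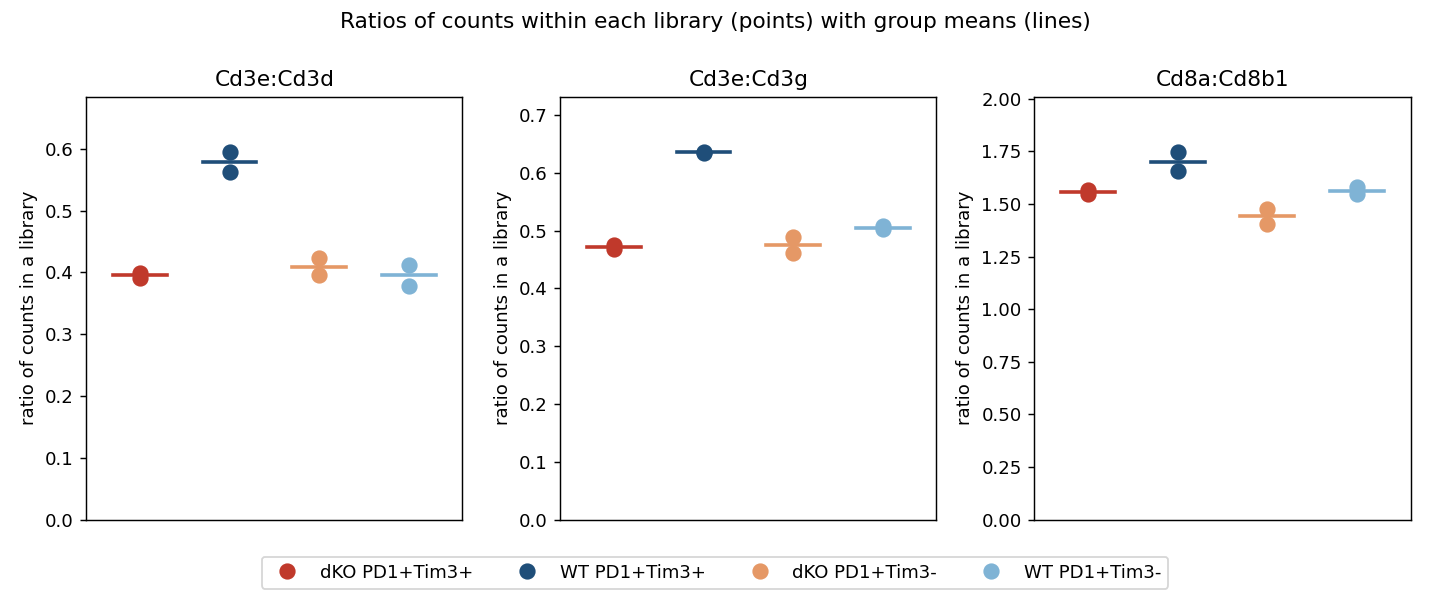
Count ratios between members per library, by group, with the mean of 2 libraries as a line. The Cd3e to Cd3d ratio is 0.563 and 0.595 in WT PD1+Tim3+ cells and at most 0.424 elsewhere, and the Cd8a to Cd8b1 ratio is 1.65 and 1.75 there and at most 1.58 elsewhere.

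Counts in transcripts under 1000 bases also moved with these groups: they made up 15.1% and 17.5% in PD1+Tim3+ libraries labelled dKO against 14.0% and 13.9% in WT, and 15.9% and 14.3% against 16.9% and 17.1% in PD1+Tim3- cells. The longest transcripts of Cd3e, Cd3d and Cd3g are 1462, 1617 and 1023 bases, all above that limit. With offsets for transcript length the genotype differences in PD1+Tim3+ cells were -0.23 for Cd3e and 0.35 for Cd3d, against -0.22 and 0.33 without. The part of transcript length in the ratios was not tested. Gm48719, an antisense gene, and Gm48720, on the same strand, overlap Cd3e, and the strand setting of the counts is not known, so reads from these genes cannot be told apart from its own.

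Cd3g and Cd247 complete the receptor complex. Cd3g stood at 702 and 608 CPM in PD1+Tim3+ libraries labelled dKO against 579 and 551 CPM in WT, and at 625 and 626 CPM against 540.0 and 594 CPM in PD1+Tim3- cells. Libraries labelled dKO were higher without overlap in both populations. The log2 difference was 0.21 for PD1+Tim3+ (edgeR adjusted p 0.535) and 0.14 for PD1+Tim3-, and neither passed. Length offsets took the PD1+Tim3+ difference to 0.095 and the PD1+Tim3- difference to 0.16. Such higher values without overlap were found for 20.7% of all genes in the former contrast and 20.3% in the latter. How many genes were higher in both was not counted. Cd247, the zeta chain, stood at 179 and 174 CPM in PD1+Tim3+ libraries labelled dKO against 189.8 and 174 CPM in WT, and at 152 and 159 CPM against 137 and 153 CPM in PD1+Tim3- cells. The 4 PD1+Tim3+ libraries were above the 4 PD1+Tim3- libraries, as with Cd8a and Thy1. Its log2 fold change in WT cells was 0.33 with an adjusted p of 0.0601 by edgeR, and it passed when either PD1+Tim3+ library labelled dKO was left out of the shared fit. Part of Cd247 is overlapped by Pou2f1 on the opposite strand.

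The kinases and the adaptor had their lowest group mean in WT PD1+Tim3- cells and their highest in WT PD1+Tim3+ cells, with the cells labelled dKO between. Lck, which phosphorylates the CD3 tails, stood at 372 and 361 CPM in PD1+Tim3+ libraries labelled dKO against 442 and 419 CPM in WT, and at 391 and 416 CPM against 334 and 389.5 CPM in PD1+Tim3- cells. Zap70, which docks on those tails, stood at 177 and 144 CPM in PD1+Tim3+ libraries labelled dKO against 191 and 194 CPM in WT, and at 173 and 184 CPM against 136 and 169 CPM in PD1+Tim3- cells. For both genes the libraries labelled dKO were below WT in PD1+Tim3+ cells and above WT in PD1+Tim3- cells, without overlap. Of all genes, 20.7% were lower without overlap in PD1+Tim3+ cells and 20.3% higher in PD1+Tim3- cells. The share with both was not counted. In PD1+Tim3- cells the genotype differences were 0.16 for Lck and 0.22 for Zap70. Without replicate 1 of WT PD1+Tim3- they were 0.07 and 0.09.

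The interaction, the genotype difference in PD1+Tim3+ cells minus that in PD1+Tim3- cells, tests this change between populations directly. It was -0.49 ± 0.20 for Zap70 (95% interval -0.92 to -0.06, p 0.0292, edgeR adjusted p 0.436) and -0.39 ± 0.17 for Lck (-0.77 to -0.02, p 0.0424, adjusted p 0.476). Neither passed. Of the 10 members 0 were called by edgeR and 0 by DESeq2 for the interaction, and 2 had an unadjusted p under 0.05, where 10.1% of all genes did. Over all 13073 genes edgeR called 0 (0%), with 1320 at an unadjusted p under 0.05, and DESeq2 called 68. Of the 10 interaction values 2 were positive, where 50.4% of all genes were, and 8 were negative, with a median of -0.25 against 0.00 over all genes.

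Lat, the scaffold phosphorylated by ZAP70, had overlapping genotypes in PD1+Tim3+ cells. Its level was 483 and 373 CPM in PD1+Tim3+ libraries labelled dKO against 440.4 and 472 CPM in WT, and 407 and 426 CPM against 345 and 401 CPM in PD1+Tim3- cells. The PD1+Tim3+ libraries labelled dKO spanned both WT values. The WT population difference was 0.29 with an adjusted p of 0.193 by edgeR, against 0.25 and 0.180 for Lck and 0.34 and 0.116 for Zap70. Without replicate 1 of WT PD1+Tim3-, the lowest library for all 3, these differences were 0.20 for Lat, 0.15 for Lck and 0.20 for Zap70. The ratio of Zap70 to Lck counts lay between 0.398 and 0.477 in all 8 libraries, with no group apart.

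Between the genotypes as labelled, no member passed in either population. In PD1+Tim3- cells edgeR called 0 of 10 and DESeq2 0, where edgeR called 0.0459% of all genes, and 1 member, Cd8b1, had an unadjusted p under 0.05 (8.27% of all genes). All 10 values were positive, where 49.1% of all genes were, although those of Cd3d (0.00), Thy1 (0.01) and Cd3e (0.05) turned negative under an alternative. Their median was 0.15, against -0.01 over all genes, and 0.11 with length offsets. The 10 values share the same libraries and are not separate observations. Libraries labelled dKO were higher without overlap for 6 members, Cd8b1, Zap70, Cd8a, Lat, Lck and Cd3g (20.3% of all genes), and lower for 0 (21.0%). The log2 differences were 0.33 for Cd8b1, 0.22 for Zap70, 0.21 for Cd8a, 0.16 for Lat and for Lck, and 0.14 for Cd3g.

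The WT PD1+Tim3- libraries enter both that contrast and the WT population contrast, and had the lowest group mean for 8 of 10 members. Replicate 1 of WT PD1+Tim3- was the lowest library of all 8 for 9 of 10 members. How often either holds over all genes was not counted. The members made up 0.471% of the counts of replicate 1 and 0.580% of those of replicate 2, against 0.602% and 0.587% in PD1+Tim3- libraries labelled dKO. Replicate 1 of WT PD1+Tim3- also had the lowest TMM factor, 0.901 against 0.968 to 1.07 in the other libraries, and its group had the highest chi-square per gene, 16.1. Without that replicate the genotype difference was 0.09 for Zap70 and 0.07 for both Lat and Lck, while that of Cd8a was 0.19 and that of Cd8b1 0.33.

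In PD1+Tim3+ cells edgeR called 0 of 10 and DESeq2 0 between genotypes, where edgeR called 0.627% of all genes, and 1 member, Cd3d, had an unadjusted p under 0.05 (12.0% of all genes). Here 2 members were higher in the libraries labelled dKO without overlap, Cd3d and Cd3g (20.7% of all genes), and 3 were lower, Cd3e, Lck and Zap70 (20.7%). The values were -0.26 ± 0.14 for Zap70 (adjusted p 0.485), -0.23 for Lck (0.484) and -0.22 for Cd3e. Without replicate 2 of dKO PD1+Tim3+ they were -0.12 for Zap70 and -0.10 for Cd3e, and without replicate 1 -0.42 and -0.34, while that of Lck ran from -0.28 to -0.20 with any library left out. The median of the 10 was -0.04, against 0.01 over all genes. Summed NK cell markers moved with the genotype label, at 73.0 to 78.7 CPM in PD1+Tim3+ libraries labelled dKO against 120 to 130.1 CPM in WT, and 48.8 to 51.8 CPM against 83.6 to 86.2 CPM in PD1+Tim3- cells. All 5 NK genes of that list were in the table, 4 passed the low-count filter, and the defining gene Ncr1 was at 0 in 7 of 8 libraries. Eomes, at 26.8 to 62.4 CPM over the 8 libraries, and Klre1, at 5.25 to 50.8 CPM, made up most of this sum. Fcgr3 overlapped between genotypes in both populations, and Klrb1c in PD1+Tim3- cells. Bulk counts cannot tell whether these reads came from NK cells or from the sorted CD8 T cells, and the part of these genes in the results was not tested. Erythroid genes summed to 33.1 to 109 CPM in PD1+Tim3+ libraries labelled dKO against 6.21 to 33.0 CPM in WT, and to at most 7.82 CPM in PD1+Tim3- cells, and their part in the results was not tested.

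**Figure D3:**
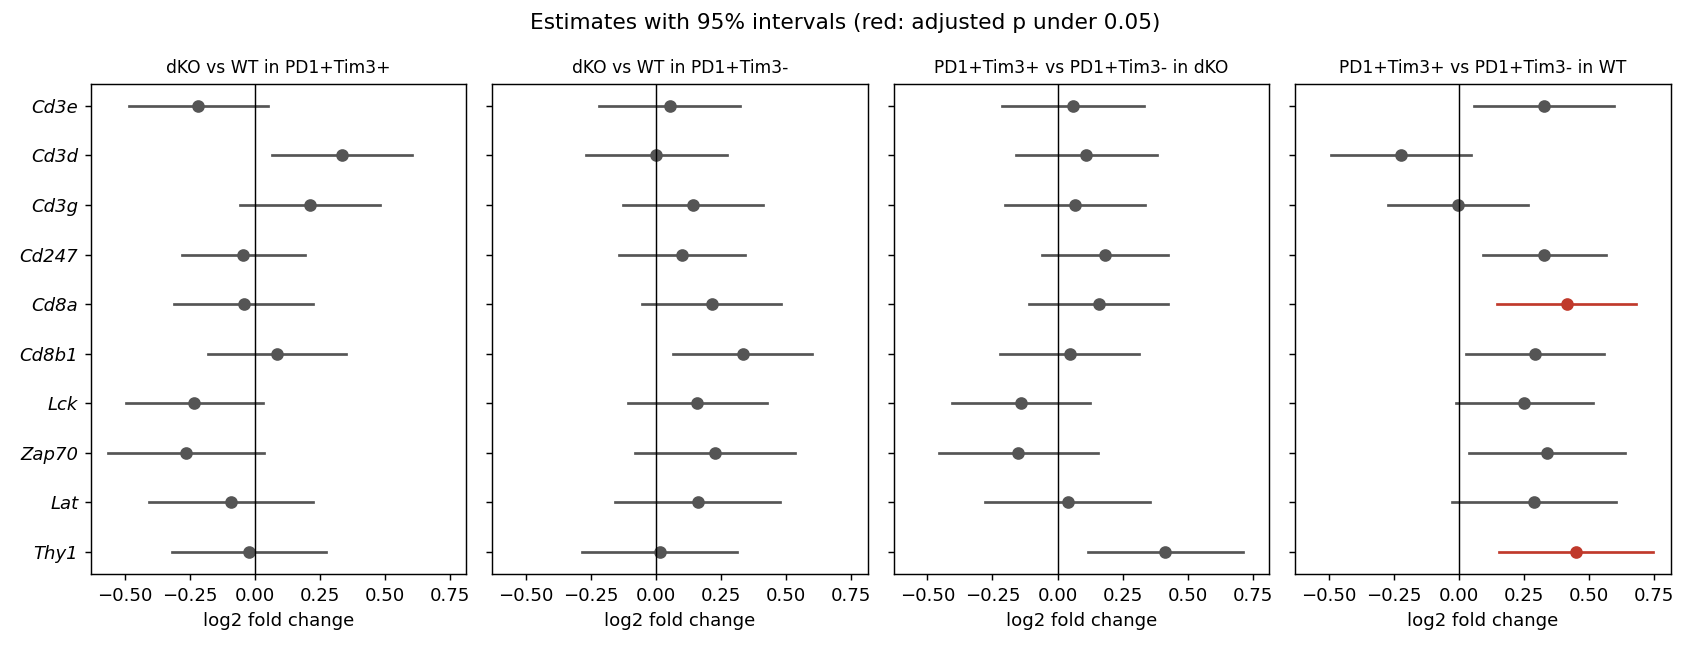
Log2 fold change of each member in the 4 contrasts (points) with 95% intervals (lines) from edgeR's quasi-likelihood fit; the contrasts are those of libraries labelled dKO over WT and of PD1+Tim3+ over PD1+Tim3- cells. Red marks Cd8a and Thy1 in WT cells, the 2 calls at an adjusted p under 0.05; all 10 points of the genotype contrast in PD1+Tim3- cells lie above 0.

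The members differed in how closely they tracked each other. Over the 8 libraries, which share groups and scaling, Cd8a had a Pearson r of 0.94 with the mean of the other 9 members, Cd247 0.88 and Lat 0.87. Cd3d stood alone at -0.17, and Cd3g had 0.46. Outside the members, the genes whose log2 levels ran closest to the members' mean were Aaed1 (r 0.97), Rnh1 (0.97), Aup1 (0.97), Pgls (0.97) and Trp53 (0.97). The most opposed were Camkk2 (-0.98), Urb2 (-0.98), Ddx24 (-0.98), Bach1 (-0.97) and Asic3 (-0.96). These are the extremes of 13073 genes over 8 libraries and are given as a description.

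Around the core, 60 other T cell receptor pathway genes were tested of 63 listed. The constant-region genes Trac, Trbc1 and Trbc2 were not in the count table under these symbols. In PD1+Tim3+ against PD1+Tim3- cells 8 rose and 2 fell in those labelled dKO, where 9.93% of all genes were called, and 7 rose and 4 fell in WT cells, where 17.0% were, a share near that of the list. DESeq2 called 5 in cells labelled dKO and 8 in WT cells. With a library left out the counts ran from 1 to 12 in cells labelled dKO and from 3 to 12 in WT cells. The lowest counts were 1 without replicate 1 or 2 of dKO PD1+Tim3-, and 3 without replicate 1 or 2 of WT PD1+Tim3+ or replicate 1 of WT PD1+Tim3-. With replicate number and genotype as the block the counts were 5 in cells labelled dKO and 7 in WT cells. The median log2 fold change of the 60 was 0.03 in cells labelled dKO and 0.11 in WT cells. Between genotypes 1 fell in PD1+Tim3- cells, Ubash3b (0.0459% of all genes called), and 0 passed in PD1+Tim3+ cells (0.627%), where 7 had an unadjusted p under 0.05 (12.0% of all genes) and DESeq2 called 0. For the interaction edgeR and DESeq2 both called 0, with 7 at an unadjusted p under 0.05 (10.1% of all genes). Both unadjusted counts are near the share of all genes.

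Among receptor chains and accessory receptors, of which 11 were tested, Cd44 and Cd48 rose in both genotypes. Cd44, a hyaluronan receptor of activated T cells, stood at 196 and 190.1 CPM in PD1+Tim3+ libraries labelled dKO against 132 and 148 CPM in PD1+Tim3- ones (0.47 ± 0.11, edgeR adjusted p 0.0244), and at 178 and 169 CPM against 123 and 116 CPM in WT (0.54 ± 0.11, adjusted p 0.00722). Cd48, a ligand of CD2 family receptors, rose by 0.50 in cells labelled dKO and by 0.52 in WT cells. Spn, the sialophorin CD43, rose in cells labelled dKO (0.44), and Ptprc, the phosphatase CD45 that activates LCK, fell in WT cells to 1732 and 1621 CPM in PD1+Tim3+ libraries against 2253 and 2297 CPM in PD1+Tim3- libraries (-0.44 ± 0.12, adjusted p 0.0325). Between genotypes and for the interaction none of the 11 passed by edgeR or DESeq2, and unadjusted p-values under 0.05 numbered 0 in either population and 1 for the interaction. The smallest p-values were those of Cd44 and Cd48 in PD1+Tim3- cells (0.22 and 0.25, adjusted p 0.636 and 0.662) and of Cd27 and Cd6 in PD1+Tim3+ cells (-0.23 and -0.18, adjusted p 0.443 and 0.525). For the interaction they were those of Cd6 (-0.34, adjusted p 0.452) and Spn (0.19, adjusted p 0.739).

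Downstream of the receptor, 27 genes were tested and 2 passed in each population contrast. Of all genes, 9.93% were called in cells labelled dKO and 17.0% in WT cells. In cells labelled dKO the list's share is near that of all genes. Txk, a TEC family kinase, fell in both genotypes, to 13.8 and 15.1 CPM in PD1+Tim3+ libraries labelled dKO against 26.8 and 32.5 CPM in PD1+Tim3- ones (-0.99 ± 0.17, edgeR adjusted p 0.00659), and to 21.1 and 25.8 CPM against 38.8 and 38.4 CPM in WT (-0.70 ± 0.14, adjusted p 0.00665). Sh2d2a, an LCK-binding adaptor, rose in WT cells (0.39 ± 0.12, adjusted p 0.0420), and Itpr1, a calcium release channel, rose in cells labelled dKO (0.55 ± 0.11, adjusted p 0.0146). Between genotypes Txk had the smallest p of the list in both populations and did not pass, at -0.72 ± 0.15 in PD1+Tim3+ cells (adjusted p 0.0850) and -0.42 in PD1+Tim3- cells (adjusted p 0.531). Orai1, the calcium channel pore, and Bcl10, an NF-kappaB adaptor, were the other genes with the smallest p, at 0.38 between genotypes in PD1+Tim3- cells (adjusted p 0.540) and -0.53 for the interaction (adjusted p 0.403). Sh2d2a stood at -0.27 between genotypes in PD1+Tim3+ cells (adjusted p 0.384) and Itpr1 at 0.39 for the interaction (adjusted p 0.409).

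Genes that restrain the receptor complex gave 5 calls of 22 in cells labelled dKO, where 9.93% of all genes were called, and 6 of 22 in WT cells, where 17.0% were. Dok2, an adaptor that dampens RAS signalling, rose to 71.5 and 57.3 CPM in PD1+Tim3+ libraries labelled dKO against 37.3 and 39.9 CPM in PD1+Tim3- ones (0.75 ± 0.14, edgeR adjusted p 0.0102), and to 66.5 and 72.6 CPM against 36.1 and 41.0 CPM in WT (0.86 ± 0.13, adjusted p 0.00244). The adaptors Sla2 and Sit1 rose in both genotypes as well, Ubash3b rose in cells labelled dKO (0.58) and Socs1 in WT cells (0.81). Dgka, which consumes diacylglycerol, fell by 0.47 in cells labelled dKO and by 0.40 in WT cells, and the ubiquitin ligase Cbl fell in WT cells (-0.46).

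Between genotypes, Ubash3b, a phosphatase that acts on ZAP70, fell to 34.9 and 34.1 CPM in PD1+Tim3- libraries labelled dKO against 61.3 and 60.5 CPM in WT (-0.81 ± 0.11, edgeR adjusted p 0.0267). DESeq2 did not call it, nor did edgeR when any library other than a PD1+Tim3+ library labelled dKO was left out. Its PD1+Tim3+ levels were 51.4 and 52.5 CPM in libraries labelled dKO against 72.9 and 69.5 CPM in WT (-0.45, adjusted p 0.0814). Csk, the kinase that holds LCK inactive, stood at 79.5 and 74.1 CPM in PD1+Tim3+ libraries labelled dKO against 109.5 and 115 CPM in WT (-0.55 ± 0.11, adjusted p 0.0507), and at 91.6 and 81.4 CPM against 88.9 and 97.2 CPM in PD1+Tim3- cells. Its interaction of -0.46 had an adjusted p of 0.354, and that of Ubash3b was 0.36 (adjusted p 0.440). Cblb, a ubiquitin ligase, came next by p in PD1+Tim3- cells at -0.50 (adjusted p 0.195).

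**Figure D4:**
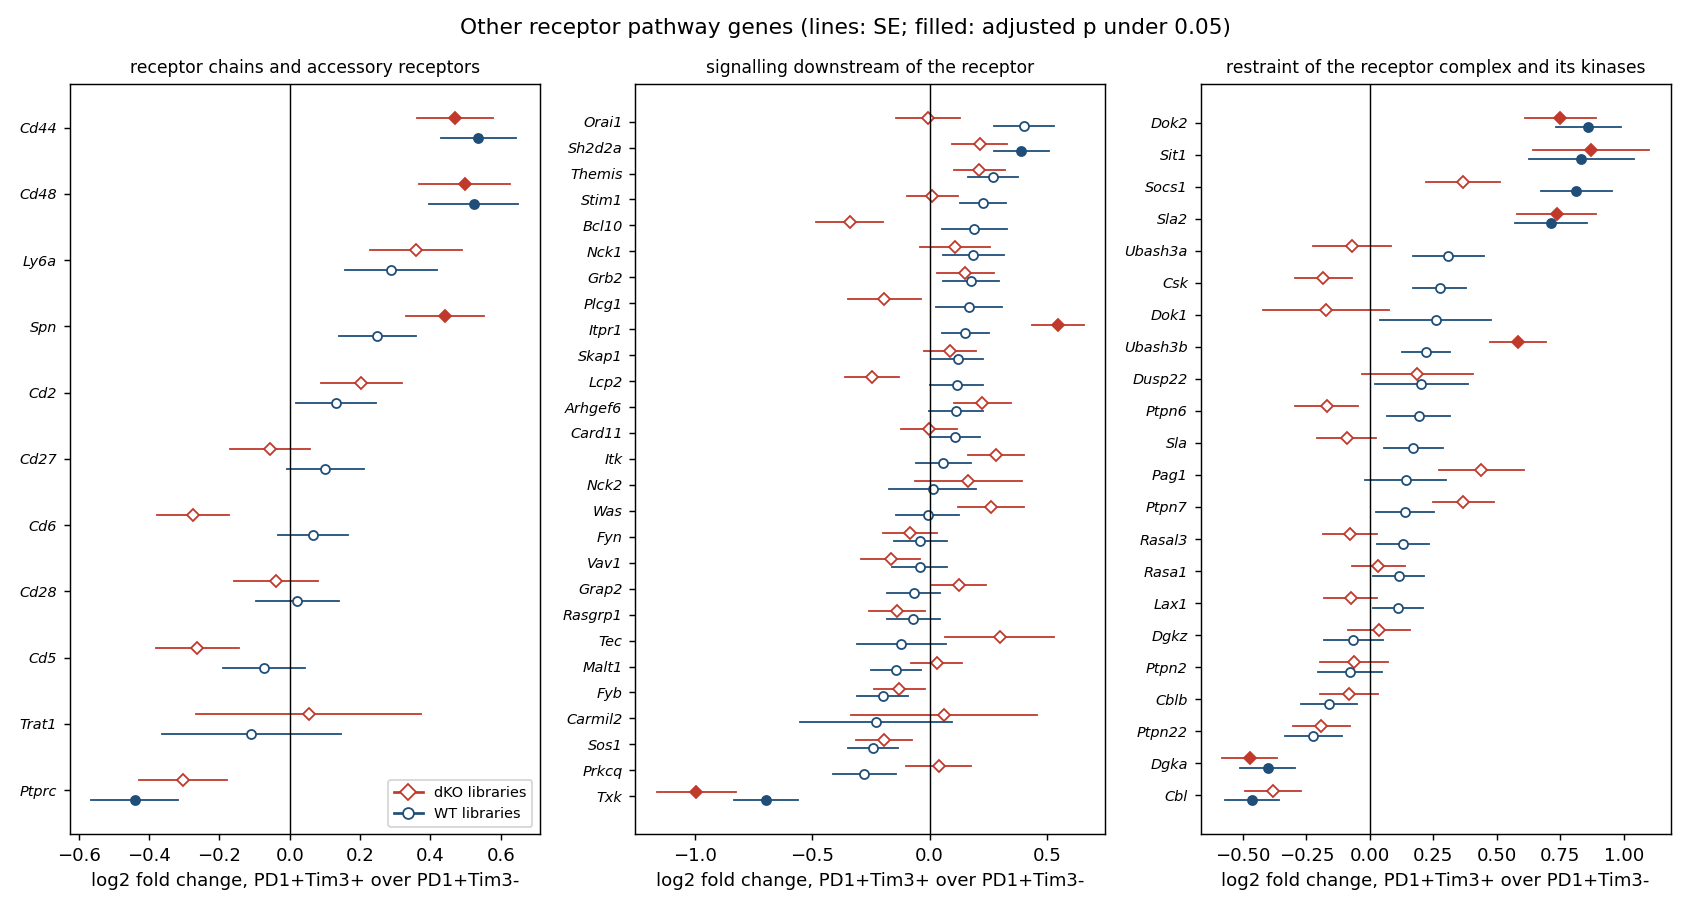
Log2 fold change of PD1+Tim3+ over PD1+Tim3- cells for the 60 other pathway genes, by list, in libraries labelled dKO (red) and WT (blue); lines are standard errors and filled points passed an adjusted p of 0.05. Called genes lie on both sides of 0, with Dok2, Sit1 and Sla2 high and Txk and Dgka low in both genotypes.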

How the data were processed

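Groups were taken from the labels, with 2 libraries for each of 4 combinations of genotype label and sorted population. PD1+Tim3- columns of the table name PD1 alone and were assigned by their contrast with the Tim3+ columns. The deposited file holds whole-number counts per gene symbol, made by the authors. Per the submitters' processing notes the build was mm10 and the tools included cutadapt 1.18 and Bowtie2 2.2.5. Counting tool, annotation and strand setting: not given in the sources used here. An unnamed last line equal to the column totals was left out. Counts of genes that overlap others are uncertain without the strand setting.

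Tests on the counts used edgeR 4.0.16 (R 4.3.3, limma 3.58.1) and its quasi-likelihood F statistic, with TMM scaling, the default low-count filter (13073 genes kept), 1 fit of 4 group means with 4 residual degrees of freedom, and Benjamini-Hochberg adjustment over all genes. With 2 libraries a group, the p-values assume an equal spread in all 4 groups. SE is the log2 fold change divided by the root of F, and log2 CPM used a prior count of 2. The code was tested on simulated counts. Alternatives were other size factors, DESeq2 1.42.0, no filter, offsets for the trend of level on transcript length (GENCODE M21), replicate number as a block, only the libraries of a contrast, and each library left out.

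The 10 genes and the pathway lists were chosen with earlier results of these data known. Named beside the 10 are the pathway genes called in a contrast, the 2 with the smallest p in each list and contrast, and the 5 genes most and least like the members' mean log2 level.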

Additional observations from a re-analysis of the deposited data

How the results depend on the processing

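Of 720 alternative values of the 10 genes, 661 kept their direction and their side of the threshold, 18 lost a call, 4 gained one and 37 changed sign, none of them called. With 2 libraries a group, the calls of Cd8a and Thy1 lie close to the threshold. Numbers of members called in WT PD1+Tim3+ against PD1+Tim3- cells were 2, and 0 by DESeq2, 0 under either replicate block, and 0 to 3 with a library left out. In cells labelled dKO no filter gave 1 (Thy1) in place of 0. Without the low-count filter 232 of all genes were called between genotypes in PD1+Tim3- cells (6 in the reported fit), 486 in PD1+Tim3+ cells (82) and 331 for the interaction (0). DESeq2 called 1303 between WT populations (2223) and 68 for the interaction (0). Offsets for transcript length gave 51 between genotypes in PD1+Tim3+ cells, and fits of only the contrast's libraries gave 3 in PD1+Tim3- and 38 in PD1+Tim3+ cells. With a library left out, the counts ran from 0 to 31 between genotypes in PD1+Tim3- cells, 6 to 413 in PD1+Tim3+ cells, 132 to 1392 between populations in cells labelled dKO, 433 to 2773 in WT cells, and 0 to 323 for the interaction.

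Deviations of same-numbered libraries from their group means correlated between -0.18 and 0.02. With 2 libraries a group, these values cannot show whether same-numbered libraries came from the same mouse. The replicate block across all groups gave 0 of all genes between genotypes in PD1+Tim3- cells, 40 in PD1+Tim3+ cells and 716 between populations in cells labelled dKO (1298). Under this block Cd8a and Thy1 had adjusted p-values of 0.0880 and 0.0982 in WT cells, and 0.139 and 0.151 with genotype and number as the block, by edgeR. The block of genotype with number could not be fitted to contrasts between genotypes, nor the interaction to the libraries of 1 contrast. The shallowest library, replicate 2 of PD1+Tim3- labelled dKO, held 302 counts of Cd247, the fewest of any member.

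Changes of sign concerned small values. With length offsets the genotype difference in PD1+Tim3- cells was -0.0029 for Cd3e, -0.062 for Cd3d and -0.047 for Thy1, and that of Thy1 in PD1+Tim3+ cells 0.0074. In cells labelled dKO the population difference became -0.029 for Cd3e, -0.077 for Cd3g, -0.039 for Cd8b1 and -0.079 for Lat, and the interaction -0.069 for Cd3g and 0.055 for Thy1. Without the filter Cd3d stood at -0.012 between genotypes in PD1+Tim3- cells and Cd3g at 0.016 between WT populations. With a library left out, the genotype difference in PD1+Tim3- cells ran from -0.0075 to 0.019 for Cd3d and from -0.080 to 0.13 for Thy1. In PD1+Tim3+ cells it ran from -0.017 to 0.19 for Cd8b1, -0.13 to 0.082 for Thy1, -0.14 to 0.049 for Cd8a, -0.29 to 0.085 for Lat and -0.12 to 0.016 for Cd247. The population difference of Cd3g in WT cells ran from -0.062 to 0.065. In cells labelled dKO it ran from -0.056 to 0.18 for Cd3e, -0.022 to 0.24 for Cd3d, -0.036 to 0.17 for Cd3g, -0.053 to 0.15 for Cd8b1, -0.16 to 0.22 for Lat and -0.31 to 0.00018 for Zap70. The interaction ran from -0.035 to 0.17 for Cd3g and from -0.15 to 0.064 for Thy1. The cause was not tested.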
